A study of Mus musculus with 3 samples.

Results

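Among single cells sorted from mouse intestinal epithelium, the Lgr5 and Olfm4 positive stem cells of the crypt base were examined. They were chosen by their UMI counts: a cell counted as one of them when it held at least 1 unique molecular identifier (UMI, the tag that marks each captured transcript once) of Lgr5 and at least 5 of Olfm4, while 6 mitotic genes (Mki67, Top2a, Ube2c, Nusap1, Cenpf and Prc1) together took under 0.1% and 7 goblet genes (Muc2, Clca1, Fcgbp, Zg16, Tff3, Agr2 and Spink4) under 1% of its UMIs. Of 25554 barcodes, 5594 had at least 1000 detected genes and at most 15% mitochondrial UMIs, and 427 of those were stem cells by this rule. They came from 3 libraries: 179 of 2134 kept cells in the first Arid3a cKO library (cKO 1), 103 of 1550 in the second (cKO 2) and 145 of 1910 in the single control library analysed here (WT). Values below follow the order cKO 1, cKO 2, WT unless stated otherwise.

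Arid3a cKO mice carried VillinCreERT2 and Arid3a fl/fl, and WT mice carried VillinCreERT2 alone, so the recombinase was present in both groups. The Villin promoter drives this tamoxifen-dependent Cre in intestinal epithelium, and all animals received tamoxifen at an age of 8 to 10 weeks, with tissue taken 1 month after the first injection. Crypt cells were sorted as alive (DAPI-negative), Epcam-positive, CD45-negative and CD31-negative, then captured with a 10x Genomics 3′ kit. The labels give intestine as the tissue without a region.

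Lgr5 encodes a receptor for R-spondins, which keep Wnt receptors on the cell surface by holding back the ligases Rnf43 and Znrf3. Cells at the crypt base that carry it divide, renew themselves and feed the transit-amplifying cells above, from which enterocytes and the secretory cells arise. They sit between Paneth cells, which supply Wnt and Notch signals, and Olfm4, a secreted glycoprotein, marks them in the small intestine.

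The stem cells had a median of 24906, 30952 and 25741 UMIs and 4878, 5455 and 4965 detected genes, against 31704, 36099 and 30079 UMIs in the other kept cells. Mitochondrial genes took a median of 4.28%, 4.04% and 5.02% of their UMIs. No barcode of a stem cell was shared between libraries. Since WT was 1 library, no test between the groups could be made and no p-value is given. A difference is instead set against the gap between the cKO libraries and against 95% intervals (exact Poisson for a level, Clopper-Pearson for a share), which cover counting error only and say nothing of the spread between mice.

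Stem cells made up 8.39%, 6.65% and 7.59% of kept cells. The intervals were 7.25 to 9.65%, 5.46 to 8.00% and 6.44 to 8.87%, so WT lay between the cKO libraries and every interval overlapped the others. Because the rule sets minimum UMI numbers, it was also applied after thinning every cell to 21000 UMIs at random, which left out 392, 276 and 429 shallower cells. The shares were then 6.20%, 5.89% and 5.47% (108, 75 and 81 cells), with intervals that again overlapped. At this number of cells no difference in the share of stem cells was detectable. The cells that met the Lgr5, Olfm4 and goblet limits but exceeded the mitotic limit, called dividing Lgr5 and Olfm4 positive cells below, numbered 75, 44 and 83. They were 29.5%, 29.9% and 36.4% of the Lgr5 and Olfm4 positive cells under the goblet limit, with intervals of 24.0 to 35.6%, 22.7 to 38.0% and 30.2 to 43.0%. The cKO intervals overlapped that of WT, although both cKO shares lay just below the WT interval. With 1 WT library this difference was not tested. A further 8, 4 and 13 cells were lost to the goblet limit.

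**Figure D1:**
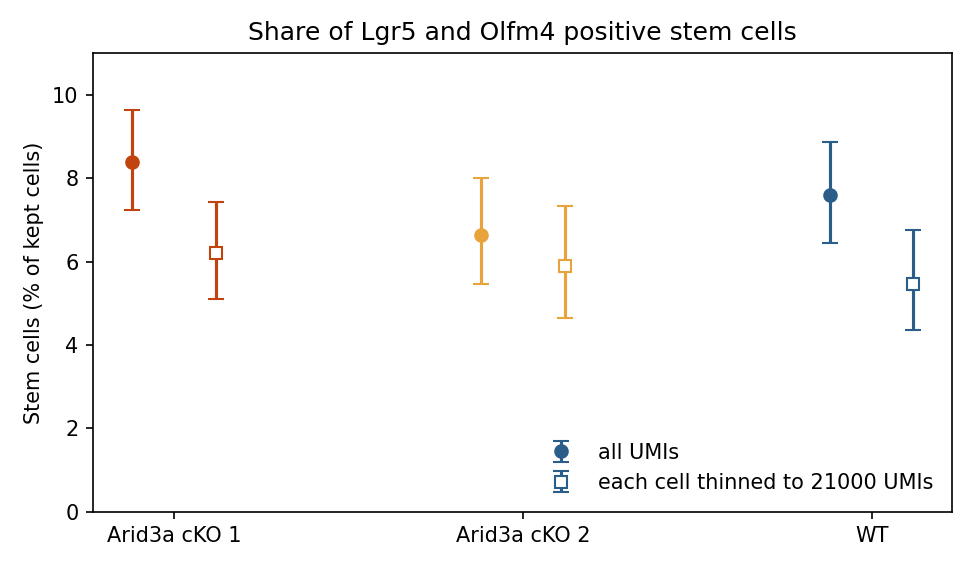
Share of Lgr5 and Olfm4 positive stem cells among kept cells (y axis, percent) in each library, with all UMIs (filled circles) and after thinning each cell to 21000 UMIs (open squares). Bars are 95% Clopper-Pearson intervals, and they overlap between all 3 libraries under both treatments.

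The values just inside and outside the limits describe how sharp the rule is. Of the stem cells, 37, 22 and 41 held a single Lgr5 UMI, and 24, 8 and 19 held between 5 and 9 Olfm4 UMIs. Just outside, 126, 89 and 123 cells met every limit except that they had no Lgr5 UMI. Their Olfm4 level was 472, 423 and 471 CPM (UMIs of a gene per 1000000 UMIs summed over the cells), against 627, 631 and 654 CPM in the stem cells with 1 Lgr5 UMI. Ascl2, a Wnt-driven transcription factor of crypt base cells that the rule did not use, was at 71.3, 55.1 and 50.8 CPM outside this limit and at 74.2, 92.5 and 63.7 CPM inside it. Cells farther outside, with Lgr5 but no Olfm4 (28, 14 and 13 cells), had Ascl2 at 2.97, 3.02 and 2.50 CPM and the enterocyte lipid-binding gene Fabp1 at 7316, 1311 and 6139.6 CPM. The cells with 1 to 4 Olfm4 UMIs, directly outside the Olfm4 limit, numbered only 7, 10 and 7. Their Ascl2 level was 15.32, 83.73 and 12.04 CPM, against 97.31, 34.96 and 35.37 CPM in the stem cells with 5 to 9 Olfm4 UMIs, so outside cells were lower in cKO 1 and WT and higher in cKO 2.

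The label was checked against stem cell genes that the rule left unused. Slc12a2, a sodium, potassium and chloride cotransporter of crypt cells, stood at 919.6, 1037 and 776 CPM, against 152, 124 and 141 CPM over all other kept cells of the same libraries. Igfbp4, which binds insulin-like growth factors, was at 92.9, 113 and 87.5 CPM against 12.1, 12.5 and 14.6 CPM. Ifitm3, an antiviral membrane protein, was at 584, 913 and 1003 CPM against 104, 131 and 200.1 CPM, and Clca3b at 1113, 1269 and 1220.4 CPM against 288, 285 and 369.7 CPM. Each of these markers was several times higher in the stem cells in every library. Across a list of 21 stem cell genes outside the rule, 18 passed a minimum mean of 20 CPM and 16 were higher in the stem cells by a log2 ratio of at least 1 in all 3 libraries, while none was lower. Over 5441 genes, 2.98% were higher by that measure and 8.31% lower. Log2 ratios throughout are those of CPM + 5, which understates differences of genes near or below 5 CPM.

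By the smallest of the 3 log2 ratios, the genes outside the rule that stood farthest above the other cells were Slc12a2, Gkn3, Ifitm3, Igfbp4, Edn1, Soat1, Cdca7 and Cyr61. Gkn3, a gastrokine, had log2 ratios of 2.90, 2.48 and 2.84. Edn1, the vasoactive peptide endothelin, had log2 ratios of 2.21, 2.82 and 2.55, and Cyr61, a matrix protein induced by YAP, of 2.23, 2.41 and 2.09. Absorptive genes lay on the other side, with 17 of 17 genes that passed the minimum lower in the stem cells by a log2 ratio of at least 1 in all 3 libraries. Fabp1, for example, was at 946, 1108 and 993 CPM against 11023, 10967 and 9949 CPM. Of the MCM helicase and other S phase genes, 10 of 21 were higher in the stem cells and none was lower, and these include Mcm6 at 97.3, 119 and 134 CPM against 38.9, 40.6 and 42.5 CPM.

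Some of the 427 cells also carried transcripts of another cell type. A stem cell was called mixed when at least 1% of its UMIs came from a list of 10 Paneth cell genes, 13 enteroendocrine genes or 18 absorptive genes, a limit set after the values were seen. This marked 22, 16 and 24 cells, which held 29.2%, 20.7% and 25.3% of all stem cell UMIs and had a median of 58872.5, 48261 and 44334.5 UMIs, against 24184, 29282 and 24551 in the others. Paneth genes accounted for 14, 6 and 13 of them, enteroendocrine genes for 2, 3 and 1 and absorptive genes for 7, 9 and 10, and a cell could meet more than 1 limit. In the most extreme cell of each library, Paneth genes took 69.3%, 7.20% and 61.6% of the UMIs. The summed level of the 10 Paneth genes was 113038, 2749.9 and 53305 CPM over all stem cells, with cKO 2 far below the other libraries, and 659, 589 and 615 CPM without the mixed cells, where the libraries were close. No doublet caller was run, and whether each of them was a single cell was not tested, so results that rest on them are given with and without them.

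**Figure D2:**
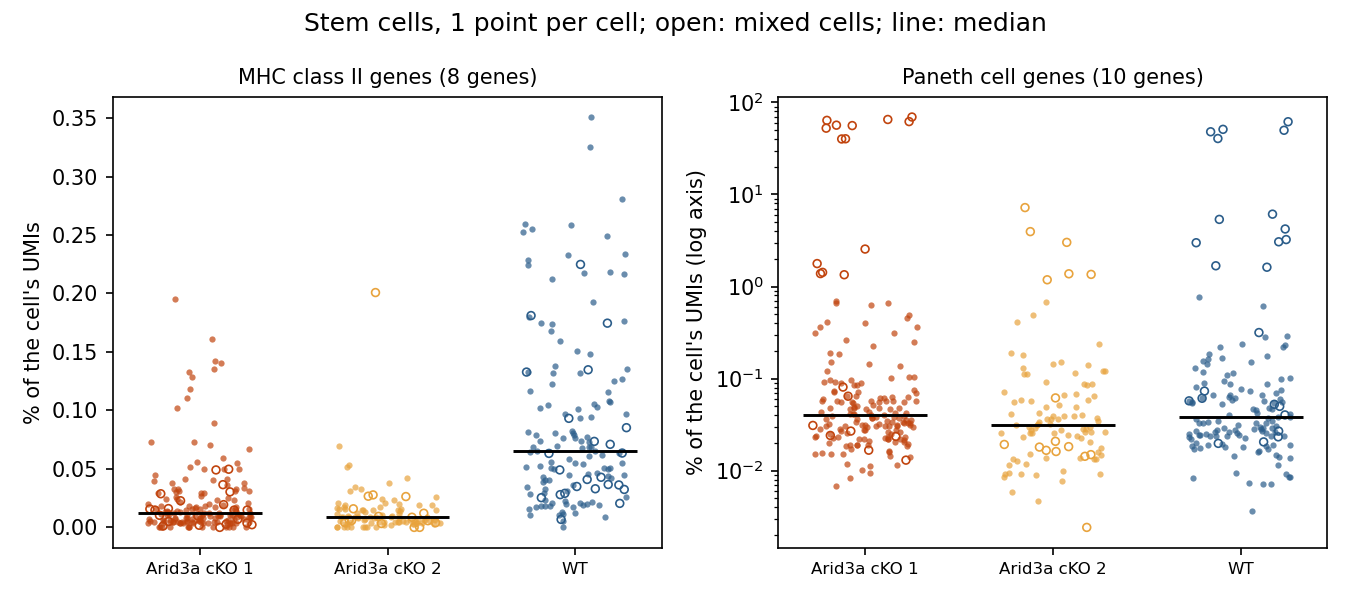
Share of each stem cell's UMIs (y axis, percent) taken by 8 MHC class II genes (left, linear axis) and by 10 Paneth cell genes (right, log axis) in each library, with 1 point per cell, open circles for mixed cells and black lines for medians. On the left most WT cells lie above the cKO medians of 0.0120% and 0.00870%, and on the right the medians are alike while a few open circles reach up to 69.3% in cKO 1 and 61.6% in WT.

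The genotype itself could not be read from these cells. Arid3a, an AT-rich interaction domain transcription factor (a protein-coding gene, ENSMUSG00000019564, at 79927043 to 79955018 of chromosome 10, plus strand, GRCm38), gave 3, 3 and 5 UMIs in the stem cells, or 0.470, 0.780 and 0.994 CPM. The intervals, 0.0969 to 1.37, 0.161 to 2.28 and 0.323 to 2.32 CPM, overlapped, and a difference was not detectable at this depth. In the other kept cells the levels were 0.604, 0.902 and 2.71 CPM, lower in both cKO libraries. Counting near the 3′ end does not measure the floxed part on its own. Its relative Arid3b gave 18, 16 and 9 UMIs, also too few to order the libraries.

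To ask how the stem cell programme differs between the groups, each cKO library was compared with WT over the stem cells. Genes of MHC class II antigen presentation were lower in both cKO libraries, with log2 ratios to WT between -3.14 and -1.21 for those that passed the filter described next, except Ctss. Most stem cell and Wnt target genes were slightly higher in both. S phase, mitosis, heat shock and interferon-response lists had medians below 0, all smaller than 0.5 in size. A gene counted as separated if the 3 libraries had a mean of 20 CPM or more and both cKO libraries had log2 ratios to WT of the same sign and at least 1 in size. Of 5353 genes that passed the minimum, 14 (0.262%) were separated, 4 (0.0747%) higher in cKO (Gm28438, Ghrl, BC064078 and Sst) and 10 (0.187%) lower (Reg3b, Reg3g, Fcgbp, Sct, Mt2, H2-DMa, H2-Ab1, H2-Eb1, Cd74 and mt-Nd3). Because the minimum uses the mean of all 3 libraries, the 4 higher genes passed owing to their cKO level. Fcgbp, Mt2, H2-DMa, H2-Ab1, H2-Eb1 and mt-Nd3 passed owing to the WT level. The counts are therefore a description only. Without the mixed cells, 11 of 5453 (0.202%) were separated, 3 higher (0.055%) and 8 lower (0.147%): Ghrl, Sst, Sct and Mt2 no longer were, and Erdr1 was. The median log2 ratio of all genes that passed was 0.01, with 30.8% of genes above WT in both cKO libraries and 23.0% below it in both.

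MHC class II molecules present peptides to CD4+ T cells, and besides immune cells the stem cells and other epithelial cells of the small intestine make them. The α and β chains (H2-Aa, H2-Ab1, H2-Eb1) assemble on the invariant chain Cd74, H2-DM (H2-DMa, H2-DMb1) loads the peptide, cathepsin S (Ctss) trims the invariant chain, and Ciita is the coactivator that switches the set on. Ciita acts through factors bound to the conserved X and Y boxes upstream of these genes. Of the 8 genes listed, 5 have an entry in the RefSeq promoter table of GRCm38.p6 (250 bases before to 50 after the start of transcription), and the windows of the 3 chain or loading genes that hold both box cores are shown because these genes were lower together. Capitals mark GNAACT, a core of the X box, and TGATTGG, the Y box, and the sequences read 5′ to 3′ on the strand of the gene.
H2-Aa (chr17:34287847-34287924, minus strand): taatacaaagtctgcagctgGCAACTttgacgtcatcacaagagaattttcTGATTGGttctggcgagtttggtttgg
H2-Eb1 (chr17:34305756-34305832, plus strand): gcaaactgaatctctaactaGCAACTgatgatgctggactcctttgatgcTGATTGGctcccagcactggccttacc
H2-DMb1 (chr17:34153077-34153154, plus strand): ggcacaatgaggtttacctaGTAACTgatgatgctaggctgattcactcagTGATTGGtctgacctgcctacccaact

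The cores were 25, 24 and 25 bases apart, and the Y core began 50, 61 and 63 bases before the start of transcription. Searched on both strands, GNAACT was found in 42.8% of 32851 promoter windows of the same length and TGATTGG in 7.82%. The pair, with GNAACT 15 to 35 bases ahead of TGATTGG, was found in 66 windows (0.201%). The letters and the spacing were chosen after these sequences had been read, and neither the windows of H2-DMa nor that of Ctss holds the pair. A match describes the letters only.

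Cd74 gave 571, 181 and 2287 UMIs in the stem cells of cKO 1, cKO 2 and WT, which is 89.5, 47.1 and 455 CPM. WT was far above both cKO libraries, with log2 ratios to WT of -2.28 and -3.14. H2-Ab1 (ENSMUSG00000073421, chromosome 17, 34257689 to 34269419) was at 25.9, 10.7 and 124 CPM (log2 ratios to WT -2.06 and -3.04). H2-Eb1 (ENSMUSG00000060586, chromosome 17, 34305867 to 34316674) was at 15.4, 7.28 and 101 CPM (log2 ratios to WT -2.38 and -3.11). For all of these chains the gap between WT and the nearer cKO library exceeded the gap between the cKO libraries, and the counting intervals of cKO and WT did not overlap.

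H2-Aa (ENSMUSG00000036594) stayed under the minimum mean, at 3.45, 3.12 and 37.2 CPM, with intervals of 2.16 to 5.22, 1.61 to 5.45 and 32.0 to 42.9 CPM. The peptide loading gene H2-DMa (ENSMUSG00000037649) was at 13.3, 9.88 and 37.4 CPM and H2-DMb1 (ENSMUSG00000079547) at 3.13, 1.30 and 12.3 CPM. WT was again the highest library for each, with intervals clear of both cKO libraries. Ciita itself gave 5, 4 and 20 UMIs, or 0.783, 1.04 and 3.98 CPM, and its intervals of 0.254 to 1.83, 0.283 to 2.66 and 2.43 to 6.14 CPM place WT above cKO 1 but not clear of cKO 2. Ctss did not follow the set, at 37.1, 46.8 and 38.6 CPM with overlapping intervals. Of the 8 genes, 5 passed the minimum mean, 3 of them (H2-Ab1, H2-Eb1 and H2-DMa) owing to the WT level, so their count carries no weight of its own.

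**Figure D3:**
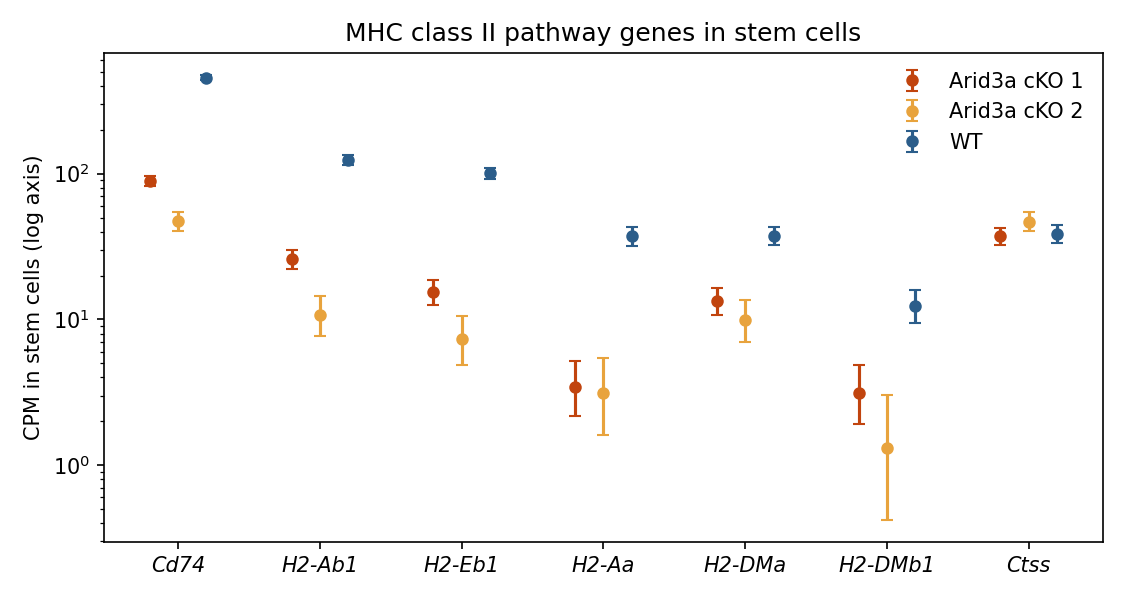
CPM (y axis, log scale) of 7 MHC class II pathway genes (x axis) summed over the stem cells of each library, with exact Poisson 95% intervals as bars. WT is the highest library for the first 6 genes, at 455 CPM for Cd74 against 89.5 and 47.1 CPM, whereas Ctss is close in all 3 libraries.

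The difference was spread over many cells. The share of UMIs from the 8 genes ran from 0 to 0.196% in cKO 1 with a median of 0.0120%, from 0 to 0.201% in cKO 2 with a median of 0.00870%, and from 0 to 0.351% in WT with a median of 0.0654%. The ranges overlapped, and 14, 11 and 1 cells held no UMI of these genes. The cell with the most Cd74 UMIs held 4.73%, 10.5% and 2.84% of its library's total. Stem cells without mixed cells were thinned to 20500 UMIs each to compare detection at 1 depth, which left 118, 79 and 95 cells. Cd74 was then seen in 57, 31 and 90 of them, or 48.3, 39.2 and 94.7%, where it had been 59.9, 42.5 and 97.5% before thinning. Goblet cells, taken as cells with at least 5% of UMIs from the goblet genes, had Cd74 in 8.06, 8.22 and 33.3% at the same depth, from unthinned medians of 23920, 31560 and 26240.5 UMIs. At least 5 Cd74 UMIs were held by 16, 6 and 71 of the thinned stem cells. H2-Eb1 was seen in 17.8, 10.1 and 67.4% of thinned stem cells and in 3.23, 4.11 and 18.7% of thinned goblet cells. H2-Ab1 differed in this respect, since it was seen in 27.1, 11.4 and 69.5% of thinned stem cells but in 58.1, 52.1 and 72% of thinned goblet cells. Its shares in stem cells lay below those of goblet cells in both cKO libraries. In WT the intervals of the shares, 59.2 to 78.5% and 60.4 to 81.8%, overlapped. Detection of H2-Ab1 alone is therefore not read as expression by the stem cells, and its levels above are given as measured.

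Without the mixed cells Cd74 was at 105, 45.9 and 502 CPM and H2-Eb1 at 15.9, 4.92 and 103 CPM, so the gap did not rest on those cells. It was also present in the dividing Lgr5 and Olfm4 positive cells, with Cd74 at 79.7, 109 and 515 CPM, and in all other kept cells, at 52.0, 36.8 and 292 CPM. It was therefore not particular to the stem cells. Markers of immune cells were at or near 0 in them: of 16 immune genes none reached the minimum mean, their summed level was 1.88, 3.38 and 2.98 CPM, and Ptprc (CD45) and the T cell gene Cd3g had no UMI in any library.

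Genes of the interferon response and MHC class I leaned the same way by less. Of 21 genes listed, 6 passed the minimum (B2m, H2-K1, H2-D1, Irf1, Psmb8 and Psmb9). All 6 were below WT in both cKO libraries, beside 23.0% of all genes, with a median log2 ratio of -0.44. Psmb8, an immunoproteasome subunit, was at 74.7, 77.2 and 120.1 CPM, and H2-K1, a class I heavy chain, at 221, 291 and 353 CPM. For both, the counting intervals of the cKO libraries lay below that of WT, as for 1.96% of all genes, while B2m, the class I light chain, had log2 ratios of -0.46 and -0.07 with an interval in cKO 2 that overlapped WT. All of these log2 ratios were smaller than 1 in size.

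Among the genes of the stem cell programme, Gkn3 had the largest mean log2 ratio. It was at 278, 410.2 and 199 CPM (log2 ratios to WT 0.47 and 1.03), and cKO 1 differed from cKO 2 by more than cKO 1 differed from WT. Cd44, a hyaluronan receptor and Wnt target, was at 70.7, 84.8 and 47.9 CPM (log2 ratios to WT 0.52 and 0.76), with cKO intervals clear of WT. Sp5, a transcription factor that Wnt signalling switches on, was at 42.3, 39.3 and 27.2 CPM (log2 ratios to WT 0.55 and 0.46). Soat1, which esterifies cholesterol, was at 186, 203 and 151 CPM, Ascl2 at 93.7, 90.5 and 72.0 CPM and Sox9, a transcription factor of the lower crypt, at 233, 205 and 174 CPM. In each of these genes WT was the lowest library.

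Smaller differences in the same direction were measured in the negative regulators of Wnt signalling. Axin2 was at 143, 149 and 123 CPM, Rnf43 at 65.0, 70.2 and 58.2 CPM and Znrf3, just under the minimum, at 17.7, 20.3 and 15.9 CPM, with intervals that overlapped WT for Rnf43 and Znrf3. The rule genes Lgr5 (124, 147 and 103 CPM) and Olfm4 (793, 913 and 724 CPM) leaned the same way, but since they chose the cells they are given as a description. Prom1 (123, 123 and 124 CPM), Aqp4, a water channel (97.6, 96.5 and 99.4 CPM), and Clca3b barely differed. Ifitm3 went the other way, at 584, 913 and 1003 CPM, with an interval in cKO 2 that was clear of WT by little and log2 ratios of -0.78 and -0.13.

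Over the list, 13 of the 18 stem cell genes that passed the minimum lay above WT in both cKO libraries and 3 below it in both, beside 30.8% and 23.0% of all genes, and the median log2 ratio was 0.23. The counting intervals of both cKO libraries were clear of WT on the higher side for 8 of the 18 and on the lower side for 1, beside 2.52% and 1.96% of all genes. Of 10 Wnt target genes that passed, 9 lay above WT in both cKO libraries and none below in both, with a median of 0.28, and 7 genes stand in both lists. The exception was Ccnd1 (cyclin D1), at 104, 128 and 124 CPM. None of these genes was separated by the log2 ratio of 1. Without the mixed cells the medians were 0.24 and 0.27, with 12 of 18 stem cell genes and 7 of 10 Wnt targets above WT in both cKO libraries, beside 38.9% of all genes, and 3 and 1 below in both, beside 27.3%.

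In the dividing Lgr5 and Olfm4 positive cells the same lists lay on the other side of WT, with medians of -0.20 for the stem cell genes and -0.19 for the Wnt targets, and 12 of 18 and 5 of 9 genes below WT in both cKO libraries. There 43.1% of all genes lay above WT in both cKO libraries and 24.5% below. By the log2 limit of 1, 20 of 5838 genes (0.343%) were separated in the dividing cells, 5 (0.0856%) higher and 15 (0.257%) lower, none of them from either list. Ascl2 was at 95.1, 86.3 and 104 CPM in the dividing cells and Soat1 at 147, 126 and 169 CPM, where WT was the highest library. Sox9 kept its order, at 199, 180.2 and 161 CPM. Whether the difference differs between stem cells and dividing cells was not tested. When the mitotic limit was dropped, so that both kinds of cell were counted as stem cells, the medians were 0.071 and 0.091.

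**Figure D4:**
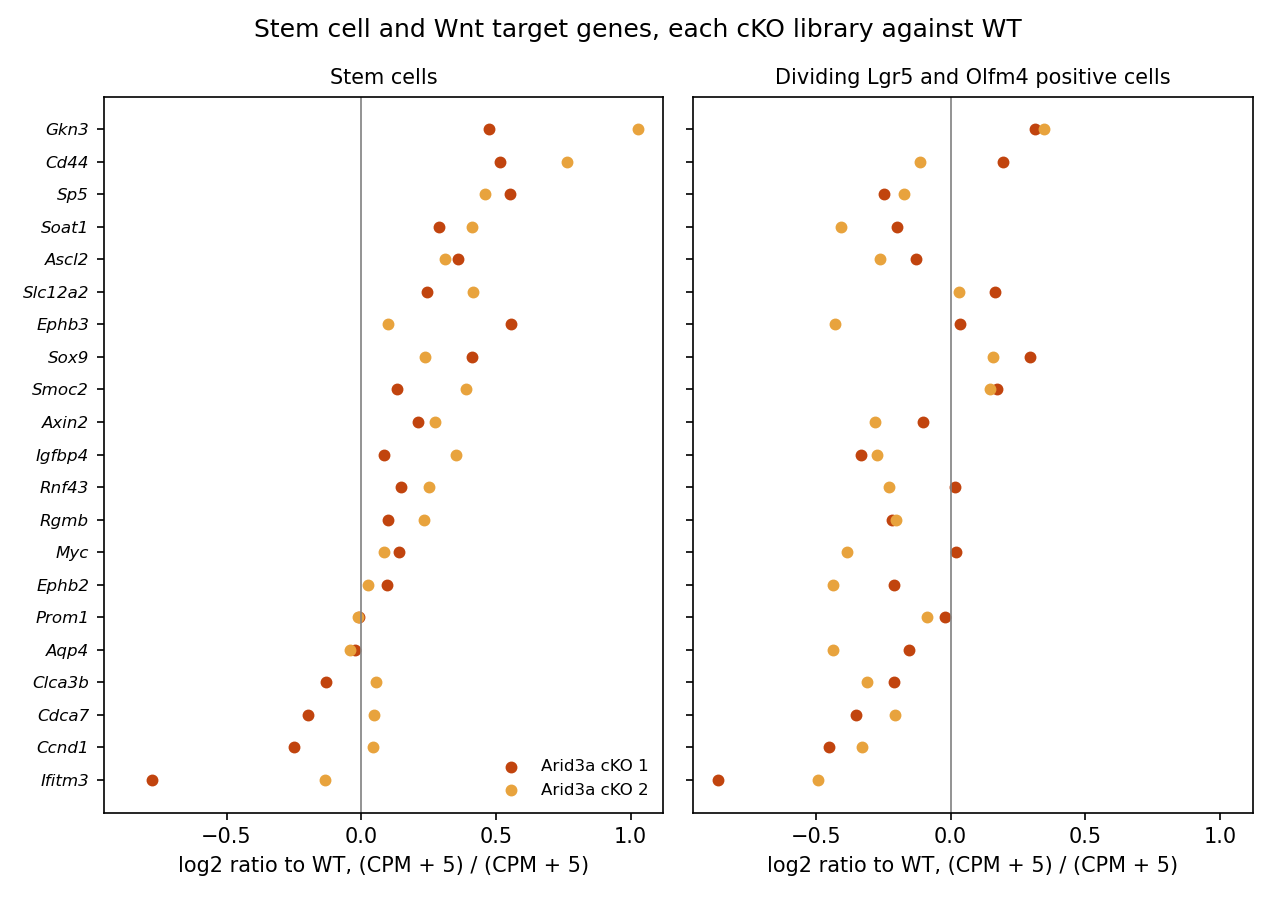
Log2 ratio of each cKO library to WT (x axis) for 21 stem cell and Wnt target genes outside the rule that passed the minimum mean (y axis, ordered by their mean in stem cells), in the stem cells (left) and in the dividing Lgr5 and Olfm4 positive cells (right). Most points lie right of 0 on the left, with Gkn3 the farthest at 0.47 and 1.03, and most lie left of 0 on the right, while Ifitm3 lies left of 0 in both.

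The Notch pathway keeps crypt base cells from secretory fates. Hes1, its main target in these cells, was at 210.1, 267 and 317 CPM (log2 ratios to WT -0.58 and -0.24), with cKO intervals below that of WT. Nrarp, a Notch target that damps the signal, was under the minimum at 18.5, 15.1 and 25.4 CPM. Notch1 was at 44.0, 36.2 and 39.8 CPM, with WT between the cKO libraries. Of 13 Notch pathway genes, 3 passed the minimum, with a median of 0.01, and 4 passed without the mixed cells, with a median of -0.20. Among regulators of secretory fate, Sox4 was at 417, 358 and 284 CPM and Foxa3 at 43.2, 38.2 and 27.4 CPM, both higher in both cKO libraries, although the Foxa3 interval of cKO 2 overlapped WT. Atoh1, which commits cells to the secretory lineage, gave 13, 8 and 11 UMIs, and Neurog3, which commits them to the enteroendocrine one, gave 19, 3 and 22 UMIs. WT did not stand apart from both cKO libraries in either.

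In epidermal growth factor signalling, single genes were higher in both cKO libraries. Errfi1, a feedback inhibitor of the receptor, was at 122, 144 and 89.8 CPM (log2 ratios to WT 0.42 and 0.65). Hbegf, a ligand, was at 356, 258 and 220.0 CPM. Dusp6 (13.0, 12.5 and 6.16 CPM) and Spry2 (14.4, 16.4 and 8.75 CPM), which damp the MAP kinase cascade, were both under the minimum. Among the receptors WT was the highest library for Egfr and Erbb2 but not for Erbb3: Egfr was at 14.6, 20.5 and 22.9 CPM, Erbb2 at 25.7, 27.3 and 33.6 CPM and Erbb3 at 87.0, 86.9 and 79.1 CPM. Of 16 genes of the pathway, receptors, ligands and targets together, 6 passed the minimum, with a median of 0.15. When mixed cells were left out, 7 passed, 4 above and 2 below WT in both cKO libraries, beside 38.9% and 27.3% of all genes. The median of cKO 2 was then 0.041. For bone morphogenetic protein and TGF-β signalling, 9 of 15 genes passed with a median of 0.07, and the target Id1 was at 647, 649 and 676 CPM, with intervals that overlapped between all 3 libraries.

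Genes of the division cycle were examined although the mitotic limit had removed cells in late phases. Of 29 S phase genes outside the rule, 23 passed the minimum, 12 lay below WT in both cKO libraries and none above in both, beside 23.0% and 30.8% of all genes. Once the mixed cells were left out, 15 of 24 lay below and 2 above in both, beside 27.3% and 38.9% of all genes. The median over all stem cells was -0.20, with -0.40 in cKO 1 and -0.02 in cKO 2, so cKO 1 lay farther from cKO 2 than cKO 2 from WT. Mcm6, part of the replicative helicase, was at 97.3, 119 and 134 CPM. Of 9 further G2 and M phase genes that passed, 7 lay below WT in both, beside 23.0% of all genes, with a median of -0.32. Cdkn1a (p21), an inhibitor of cyclin-dependent kinases, was at 66.7, 60.3 and 36.4 CPM (log2 ratios to WT 0.79 and 0.66), but without the mixed cells it was at 50.01, 20.33 and 23.41 CPM, with WT between the cKO libraries. Cdk4, Cdk6 and Ccnd2 had log2 ratios of -0.08 and 0.22, 0.15 and 0.23 and 0.09 and -0.12.

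Of 5 antimicrobial C-type lectins of the Reg family, 3 lay below WT in both cKO libraries and 1 above in both. Among all genes 23.0% lay below and 30.8% above in both. Reg3b and Reg3g were the separated Reg genes. Reg3b (ENSMUSG00000071356, chromosome 6, 78370657 to 78373466) was at 18.0, 42.4 and 519.6 CPM in cKO 1, cKO 2 and WT, but a single cell held 31.3%, 41.7% and 45.5% of these UMIs. Without the mixed cells it was at 17.0, 6.89 and 151 CPM (log2 ratios to WT -2.82 and -3.71). Reg3g was at 71.1, 80.4 and 353 CPM, and at 56.4, 60.0 and 156 CPM without the mixed cells. Both were still lower in cKO, Reg3g with log2 ratios of -1.39 and -1.31 in place of -2.23 and -2.07. At 20500 UMIs a cell, Reg3b was seen in 16.1, 13.9 and 56.8% of these unmixed stem cells. In goblet cells it was seen in 22.6, 15.1 and 60%, so its detection was not particular to the stem cells. At least 5 UMIs were held by 2, 0 and 7 thinned stem cells for Reg3b and by 6, 4 and 6 for Reg3g. The highest WT cell held 106 Reg3b UMIs, and for Reg3g 113. In the other kept cells Reg3b was at 1174, 704 and 2477 CPM, so WT was the highest library there too. Over all stem cells Reg1 ran against them, at 733, 832 and 518 CPM, and Reg3a, at 19.4, 20.3 and 25.04 CPM, had overlapping intervals. Without the mixed cells 3 Reg genes passed, 2 below and 0 above WT in both cKO libraries, beside 27.3% and 38.9% of all genes. None therefore ran against Reg3b and Reg3g in both cKO libraries there.

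Heat shock genes leaned lower, with 7 of 10 below WT in both cKO libraries, beside 23.0% of all genes, none above in both and a median of -0.42. Hsph1, a chaperone of the Hsp110 family, was at 42.6, 63.2 and 121 CPM, and Dnaja1 at 149, 173 and 274 CPM. Immediate early genes, which cell dissociation is known to induce, had a median of 0.17, with 13 of 15 above WT in both cKO libraries, beside 30.8% of all genes. With the mixed cells left out, 9 of 15 were above in both, beside 38.9% of all genes, and the median of cKO 2 was 0.027. Among them Atf3 had the largest mean log2 ratio, at 437, 332 and 245 CPM. The metallothionein Mt2, which binds zinc and copper, was at 20.1, 15.3 and 49.5 CPM. Without the mixed cells its log2 ratios were -0.99 and -1.65, which left cKO 1 just short of the limit.

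The remaining separated genes were of other kinds. The hormone genes Ghrl (428, 7909.8 and 10.1 CPM), Sst (91.3, 900.4 and 1.99 CPM) and Sct (20.1, 75.2 and 553 CPM) were not separated without the mixed cells. A single cell held 96.6%, 75.3% and 41.2% of the Ghrl UMIs and 27.3%, 86.9% and 97.9% of the Sct UMIs. The highest levels of Ghrl and Sct thus rested mainly on 1 cell, while the share for Sst is not given. The mitochondrial gene mt-Nd3 was at 6.27, 10.4 and 201 CPM and its nuclear copy Gm28438, an unprocessed pseudogene, at 72.4, 66.1 and 0 CPM. Reads of the copy and of the gene could be assigned to either, so their levels are uncertain, and the same gap stood in the other kept cells, with mt-Nd3 at 8.51, 10.3 and 283 CPM. BC064078, annotated as a transcribed pseudogene on chromosome 6, was at 30.1, 34.1 and 6.16 CPM, and at 11.2, 11.6 and 1.61 CPM in the other kept cells. Erdr1 was at 117, 153 and 57.8 CPM, and at 140.1, 161 and 65.4 CPM without the mixed cells. Fcgbp, a goblet gene that the rule used, was at 18.0, 20.3 and 45.7 CPM and is given as a description.

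Markers of alternative stem cell states gave little. Of the reserve stem cell genes, Hopx was at 308, 385 and 319 CPM, Lrig1 at 51.6, 51.2 and 45.1 CPM and Bmi1 at 11.3, 12.7 and 9.14 CPM. The regeneration marker Clu gave 24, 20 and 46 UMIs and Ly6a (Sca-1) none in any library, which allows at most 0.470, 0.780 and 0.596 CPM at 3 UMIs a library. Among the absorptive genes, S100g, a calcium-binding protein of the proximal intestine, was at 190.1, 297 and 123 CPM, but at 136, 74.8 and 80.3 CPM without the mixed cells. No gene of the colon, tuft or stromal and endothelial lists reached the minimum.

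Against the dividing Lgr5 and Olfm4 positive cells of the same library, the stem cells differed mainly in what the rule had removed. Of 5646 genes, 131 (2.32%) were lower in the stem cells by a log2 ratio of at least 1 in all 3 libraries and 17 (0.301%) were higher. All 25 G2 and M phase genes of the list were among the lower ones. Kif11, a spindle motor, was at 6.11, 5.98 and 9.34 CPM in stem cells against 109.6, 115 and 112 CPM, and the histone gene Hist1h1b, of S phase, at 47.2, 67.1 and 69.2 CPM against 668, 649.7 and 843 CPM. The higher ones included 9 of 10 Paneth genes, such as Lyz1 (lysozyme) at 9613, 316 and 4638 CPM against 114, 40.9 and 182 CPM. Without the mixed stem cells no gene was higher and 127 were lower. The dividing cells were left unfiltered there, so transcripts of other cell types were removed on 1 side only. None of the 18 stem cell genes that passed differed by this measure. Edn1 was at 190.1, 259.6 and 209 CPM in stem cells against 88.7, 118 and 128 CPM, higher in every library by log2 ratios of 1.06, 1.11 and 0.69.

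Within each library the stem cells without mixed cells were ordered by the share of their UMIs from Olfm4 and divided into 3 groups of 29 to 53 cells, since Olfm4 declines as cells leave the crypt base. In the low, middle and high Olfm4 group of WT, Slc12a2 was at 624, 851 and 1372 CPM and Gkn3 at 146, 220.5 and 341 CPM. Slc12a2, Gkn3, Smoc2, Clca3b, Cd44 and Sox9 were in this order in all 3 libraries. Other markers were not, since Ascl2 was at 76.8, 68.4 and 94.7 CPM in WT, Igfbp4 at 94.9, 93.2 and 159 CPM in cKO 1 and Ifitm3 at 1070.3, 1386 and 1068 CPM in WT. Lgr5, at 71.4, 115 and 190.5 CPM in WT, is given as a description only, because the rule used it together with Olfm4 and its minimum of 1 UMI weighs more in shallower cells. Dmbt1, a secreted mucosal defence protein, went the other way, at 648, 260.2 and 45.6 CPM in cKO 1, 521, 156 and 70.9 CPM in cKO 2 and 885, 436 and 179 CPM in WT.

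The low Olfm4 groups also had a median of 31224, 33599 and 32131 UMIs, against 22822, 27820 and 22909 in the high groups, and the part of depth in these orders was not tested. The level of Cd74 in WT was 415, 621 and 514 CPM from the low to the high group. It was 98.2, 102 and 119 CPM in cKO 1 and 42.5, 46.7 and 49.7 CPM in cKO 2, so every group of WT lay above every group of both cKO libraries. Gkn3 was likewise higher in cKO than in WT within each group.

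**Figure D5:**
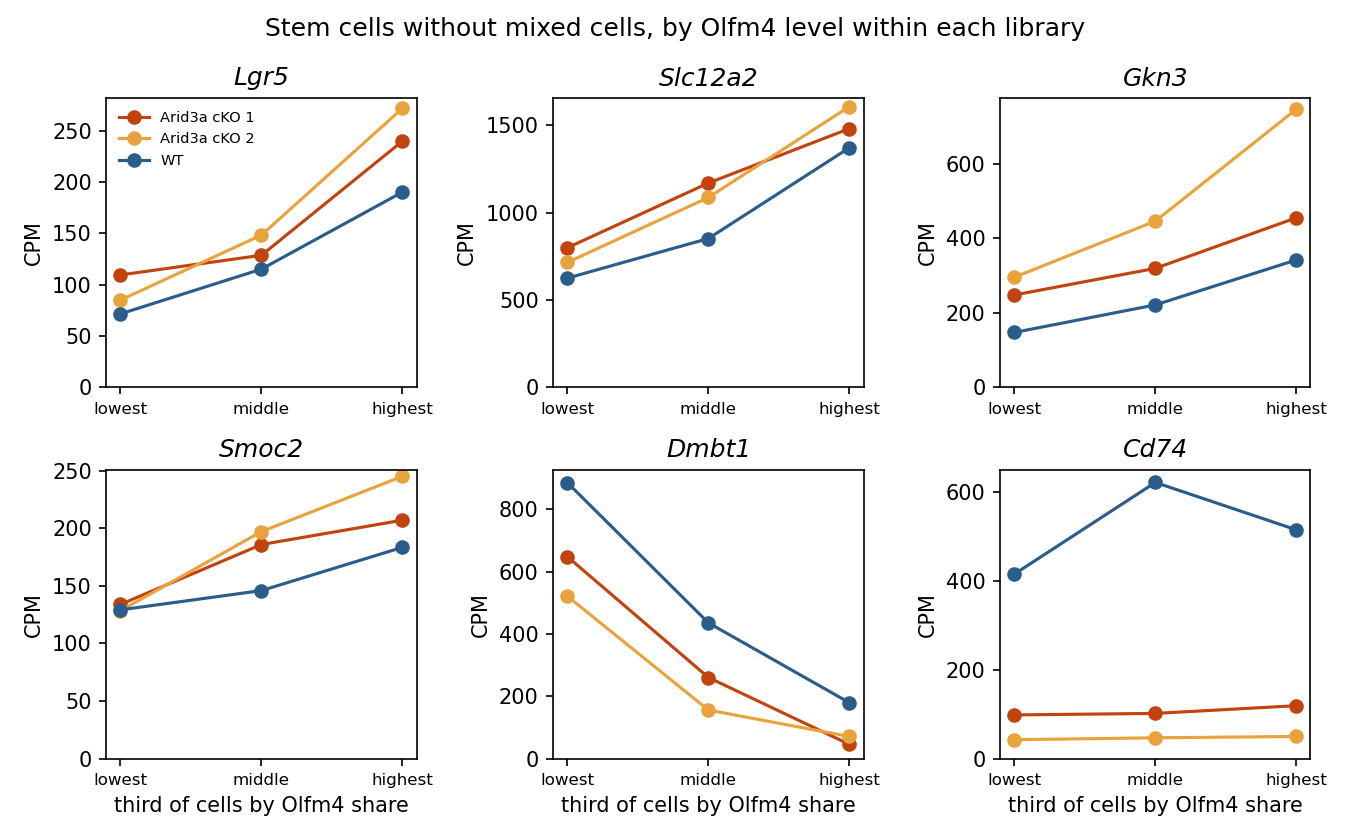
CPM (y axes) of 6 genes in stem cells divided into 3 groups by Olfm4 share (x axes, low to high) in each library, without mixed cells and with 1 summed value per group. Slc12a2, Gkn3 and Smoc2, and the rule gene Lgr5, are highest and Dmbt1 lowest in the high group of every library, while Cd74 is higher in WT than in both cKO libraries in each group.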

How the data were processed

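Crypt cells of 3 libraries (2 Arid3a cKO, 1 WT) were measured by 10x 3′ single-cell RNA-seq. The values deposited by the authors are raw UMI counts per gene and barcode, made with CellRanger 5.0 per the file headers. The submitters' processing notes name GRCh38 and hg19, human builds, and the genome used for counting is not given in the sources used here. Of 51912 features, 51633 (99.5%) were found by identifier in GENCODE M21 (GRCm38), the source of coordinates.

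The stem cell rule was applied to the barcodes with at least 1000 genes and at most 15% mitochondrial UMIs. Counts were summed per library and divided by the summed UMIs (CPM), with totals of 6382150, 3844840 and 5031222 stem cell UMIs in cKO 1, cKO 2 and WT, from 105912207, 94614297 and 129243053 UMIs over all barcodes. Log2 ratios used a pseudocount of 5 CPM and genes with a mean of at least 20 CPM. With 1 WT library there is no residual spread within that group, so no count model was fitted. No doublet caller was run, and leaving out the 5% of cells with the most UMIs served as an alternative. Thinning was random with seed 1. Genes are named if they belong to 1 of 31 lists, to the rule, or to the up to 10 genes per direction with the largest ratios in a comparison. Dmbt1, given for the Olfm4 groups, belongs to none of these and was picked separately. The members and lists were chosen with earlier results of these data known. Scripts were tested on simulated data. Python 3.11.15, numpy 2.4.6, scipy 1.17.1, pandas 2.3.3, matplotlib 3.10.9 and, for the alternative scaling by TMM, edgeR 4.0.16 in R 4.3.3 were used.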

Additional observations from a re-analysis of the deposited data

Results flagged for a closer look

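The list of stem cell genes had a median log2 ratio of cKO to WT of 0.23 in the Lgr5 and Olfm4 positive stem cells and of -0.20 in the dividing Lgr5 and Olfm4 positive cells, so it lay on opposite sides of 0 in both cKO libraries. The Wnt target list did the same, with 0.28 in the stem cells and -0.19 in the dividing cells. The lists share 7 of the genes that passed the minimum, and both comparisons use the same WT library. The difference between stem cells and dividing cells was not tested.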

How the results depend on the processing

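Each of 55 results was recomputed under up to 17 alternatives (768 values), of which 645 moved by less than the limits set. The limit was the standard deviation between both cKO libraries, or a fixed factor for a count of genes. It is widest where the cKO libraries differ most. For a single gene, leaving out 1 cKO library always stays within it, so the number 645 is a description and not a measure of robustness. Among the separated genes 1 turned its direction, Sct, at 0.0091 without the mixed cells, a setting chosen after seeing the data. Values that had not been called also crossed 0: the medians of all genes and of the Paneth (-3.97 to 1.03), absorptive (-0.43 to 0.13), Notch (-0.41 to 0.11), intestinal transcription factor, G1 control, metabolism and Wnt machinery lists, and Clca3b. The number of genes separated between cKO and WT was 14, but 30 without the 5% of cells with the most UMIs, 22 with the rule applied after thinning, 8 with a minimum mean of 50 CPM, 22 with 5 CPM, 50 at a log2 limit of 0.5, and 38 to 49 with 1 cKO library left out (49 without cKO 1, 38 without cKO 2). The number that differed between stem and dividing cells was 148, against 81 with a minimum of 50 CPM and 304 at a log2 limit of 0.5. The median of the stem cell genes was 0.071 without the mitotic limit and 0.14 to 0.26 with 1 cKO library left out (0.14 without cKO 2). That of the Wnt targets was 0.23 with at least 10 Olfm4 UMIs, 0.091 without the mitotic limit, 0.215 with a pseudocount of 20 and 0.24 to 0.29 with 1 cKO library left out. The Arid3a ratio was -0.09, with -0.15 after thinning, -0.30 with a pseudocount of 1 and -0.026 with 20. The median of the MHC class II genes lay between -3.04 and -1.94 under every alternative run. It is a description only, since H2-Ab1, H2-Eb1 and H2-DMa passed the minimum owing to the WT level. The cKO minus WT difference in the share of stem cells lay between -1.24 and 0.80 percentage points, with no fixed direction. TMM scaling gave 15 separated genes. No paired analysis was possible because WT has 1 library, so only replicate number 1 occurs in both groups. The WT library cannot be left out, and library, animal and genotype cannot be told apart in it. Depth limits genes under about 5 CPM, Arid3a and Ciita among them.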
